A study of Mus musculus with 6 samples.

Results

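Mup9, Mup10, Mup11, Mup12, Mup13, Mup14, Mup15, Mup16 and Mup17 are 9 copies of the major urinary protein gene of the mouse, and they were followed here in subcutaneous fat. They were chosen by symbol, on their values in these same 6 libraries, so their difference between the groups is given as a description. Where the number of them passing the fit over all genes is printed, it stands beside the share of all genes that passed, and nothing is read from it. They are 9 of the 24415 gene rows of the deposited table and 9 of its 21 rows with a Mup symbol. RNA was sequenced from inguinal white adipose tissue, the subcutaneous fat pad of the groin, of nonfasted C57BL/6 mice at 12 weeks, as 3 WT libraries and 3 labelled Hsp20 KO. Hspb6 encodes Hsp20, a small heat shock protein. The sources used here do not say how the knockout allele was built or whether it acts in all cells, nor that each library came from its own mouse. P-values therefore measure the spread between these samples.

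Major urinary proteins are small secreted lipocalins, barrel-shaped proteins that hold a greasy ligand in a central pocket. The liver makes most of them, more in males than in females, and they leave in the urine, where they bind pheromones and release them slowly. Pulsed growth hormone acting through its receptor, JAK2 and STAT5 drives the family in liver, together with thyroid hormone and glucocorticoid. The genes lie in 1 cluster of recent duplicates, and several members have also been described as circulating signals in metabolism. Sex is not in the labels. Ddx3y, a Y-linked gene looked up after the first results, ran from 83.4 to 110 CPM and Xist from 0.151 to 0.424 CPM over the 6 libraries (CPM are counts scaled to a common library size).

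The copies differ so little that their coding sequences decide what a count can mean. Across the 36 pairs of the 9 genes the coding sequences were between 98.5% and 99.6% identical, with a median of 98.9%, in GENCODE M21 transcripts on GRCm38. None of the 36 pairs had the same coding sequence, and Mup9 and Mup16 encoded the same protein of 180 residues. The stretch below runs from base 133 to base 192 of the Mup9 coding sequence, counted from the start codon and read 5′ to 3′. It is shown because most members cannot be told apart in it, while diverged relatives can. Capitals mark bases that differ from Mup9, and Mup10, Mup11, Mup12, Mup15 and Mup16 have the Mup9 letters.
Mup9: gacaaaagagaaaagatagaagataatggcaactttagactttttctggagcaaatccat
Mup14: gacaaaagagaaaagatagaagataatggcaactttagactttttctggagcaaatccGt
Mup17: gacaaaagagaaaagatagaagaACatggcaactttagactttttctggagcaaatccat
Mup20: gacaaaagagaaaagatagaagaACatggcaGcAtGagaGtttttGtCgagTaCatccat
Mup5: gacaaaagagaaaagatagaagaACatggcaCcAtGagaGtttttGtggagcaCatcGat
Mup3: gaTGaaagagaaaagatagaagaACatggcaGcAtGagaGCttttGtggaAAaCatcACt
Mup17 and Mup13 share the same 2 differences from Mup9, and Mup14 has 1. Mup20, a pheromone of male urine also called darcin, has 10 differences, Mup5 has 9 and Mup3 has 15.

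Over the whole coding sequence, Mup20 was between 90.5% and 91.4% identical to the 9 members, Mup5 between 90.1% and 90.6%, Mup4 between 88.6% and 89.1%, Mup21 between 84.2% and 85.1% and Mup3 between 82.9% and 83.9%. Windows of 50 bases of each transcript were searched in the GENCODE transcripts of all other genes. Among the 9, the share of windows found in no other gene ran from 0% in Mup15 to 21.9% in Mup17. It was 82.9% in Mup5, 84.4% in Mup3 and 87.6% in Mup4. A read of 50 bases from Mup15 therefore matches a transcript of at least 1 other gene exactly. The sources used here do not say how the authors' counting treated such reads, how long they were or whether strand was used. Each member's own count is therefore uncertain, and the sum of the 9 is given beside it.

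**Figure D1:**
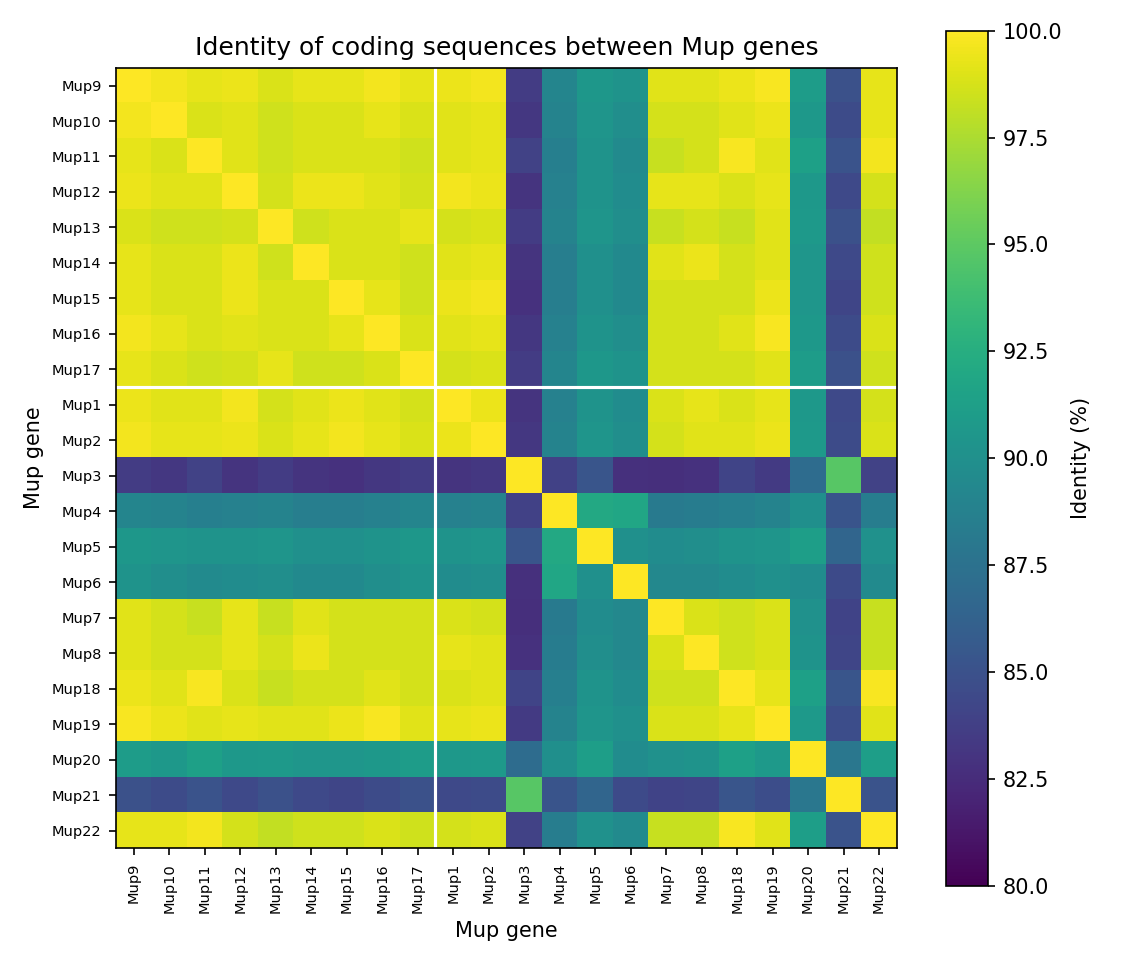
Identity of coding sequences between Mup genes, in percent by the colour scale from 80 to 100. Rows and columns are genes, and the white lines part the 9 members, upper left, from the other Mup genes. The 9 form a block with no pair under 98.5%, and Mup3, Mup4, Mup5, Mup6, Mup20 and Mup21 stand out as darker bands.

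The Mup genes span 2.19 Mb of chromosome 4, at chr4:59956804-62150841 on GRCm38.p6, from Mup4 to Mup21. Mup9 lies at chr4:60418046-60422085 and Mup17 at chr4:61591929-61595865, on the minus strand, with the other 7 members between them. Mup1 and Mup22, which are not among the members, also lie between Mup9 and Mup17. The RefSeq promoter table, with 250 bases before and 50 after a transcript start, held 6 of the 9 members, Mup9, Mup10, Mup11, Mup14, Mup15 and Mup17. The TATA element and the bases before it are shown because these 6 members share the element near their annotated starts. Counted from the RefSeq start, with minus for before it, the element began at -31 in Mup9, -30 in Mup10 and -25 in Mup15 and Mup17. It began at -2 in Mup11 and at 12, after the start, in Mup14. The windows are therefore not placed alike around the element. Capitals mark TATATAA, and each line is 5′ to 3′ along the gene.
Mup9, chr4:60421967-60422026, minus strand: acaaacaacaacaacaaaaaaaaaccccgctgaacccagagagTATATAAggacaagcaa
Mup10, chr4:60582169-60582228, minus strand: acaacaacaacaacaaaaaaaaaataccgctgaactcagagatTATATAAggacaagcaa
Mup17, chr4:61595841-61595900, minus strand: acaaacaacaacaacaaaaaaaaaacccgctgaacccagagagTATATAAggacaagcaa
Mup4, chr4:59960680-59960739, minus strand: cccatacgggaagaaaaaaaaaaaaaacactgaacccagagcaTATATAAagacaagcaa
TATATAA, which was searched after these windows had been seen, was in 6 of 6 member windows, in 7 of 8 windows of other Mup genes and in 3.242% of all 32851 windows of the table. Motifs were matched on both strands, and TATATAA overlaps TATAAA only where a further A follows. TATAAA was in 0 of 6 member windows against 13.616% of all windows. TTCNNNGAA, the palindrome that STAT factors bind, was in 0 of 6 against 8.298%, TGTTCT, the core of steroid receptor sites, in 0 of 6 against 18.974%, and CCAAT in 4 of 6 against 37.408%. No match says only that these letters are absent from a window of 300 bases.

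The libraries held between 14078936 and 32648746 counts. The smallest, labelled Hsp20 KO replicate 3, limits the precision of low genes. Hspb6, the targeted gene, stood at 12.6, 9.43 and 8.95 CPM in the WT libraries. In the libraries labelled Hsp20 KO it stood at 8.86 CPM in replicate 1, 1.51 CPM in replicate 2 and 3.94 CPM in replicate 3. The first of the labelled knockouts thus held close to the WT level of its own target, and the fitted changes of the members are given with and without it. All 12 adipocyte markers were well above the filter, with summed levels from 26176 to 28246 CPM in WT and from 19705 to 28218 CPM in the labelled knockouts. Of these 12, edgeR called 0 with all 6 libraries, with 4 at an unadjusted p under 0.05, DESeq2 called 2 and limma-voom 0. Without the library labelled replicate 1 edgeR called Retn, the hormone resistin, and Cfd, the protease adipsin, lower (log2 change -0.85 ± 0.13 and -1.14 ± 0.20, adjusted p = 0.0108 and 0.0156). Cfd stood at 7604, 7299 and 6757 CPM in WT and at 6199, 2806 and 3720 CPM in the labelled knockouts, low in the same 2 libraries as the Mup genes, and its part in the Mup signal was not tested. The quasi-likelihood test of edgeR covered 15994 genes, and 676 of them, 4.23%, were called higher and 547, 3.42%, lower in the labelled knockouts, at a Benjamini-Hochberg adjusted p under 0.05. Without the library labelled replicate 1, 941 of 16167 were higher, 5.82%, and 730 lower, 4.52%.

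The 9 genes were abundant in WT fat and very low in 2 of the 3 labelled knockouts, and the remaining labelled knockout held the highest level of all 6 libraries. Their counts summed to 151740, 159719 and 254645 in the 3 WT libraries in order of replicate number. Among the labelled knockouts the sum was 312227 in replicate 1, 17756 in replicate 2 and 14161 in replicate 3. Scaled to CPM, the sums were 5890, 5213 and 7699 in WT against 11287, 813 and 1051 in the labelled knockouts. Labelled replicate 1 lay 1.47-fold above the highest WT library, and labelled replicates 2 and 3 lay 7.71-fold and 5.96-fold below the WT mean. The groups therefore overlapped as labelled. WT libraries differed among themselves by up to 1.48-fold, and labelled replicate 1 exceeded labelled replicates 2 and 3 by 13.9-fold and 10.7-fold.

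As shares of all counts, the 9 rows took 0.580%, 0.536% and 0.780% in WT, then 1.12%, 0.0834% and 0.101% in the labelled knockouts. The 21 rows with a Mup symbol took between 1.002% and 1.46% in WT. Where a read was counted for several copies these shares are too high.

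**Figure D2:**
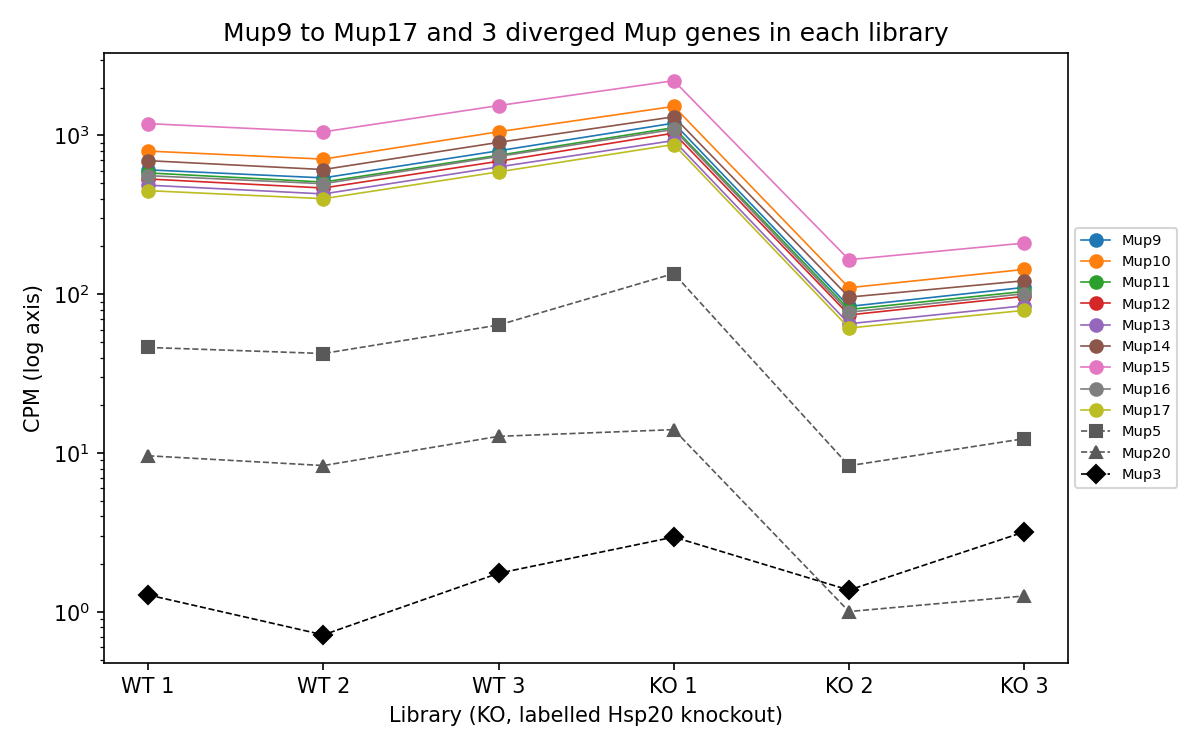
CPM on a log axis in each of the 6 libraries, for the 9 members (circles, solid lines) and for Mup5, Mup20 and Mup3 (dashed lines). Lines only join the values of a gene. The 9 run in parallel, from 399.7 to 1542 CPM in WT, from 877 to 2210 CPM in the library labelled knockout 1 and from 61.3 to 210.0 CPM in those labelled 2 and 3, while Mup3 stays between 0.718 and 3.19 CPM.

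Mup15 was the highest member in each library, with 1186, 1053 and 1542 CPM in WT and 2210, 165 and 210.0 CPM in the labelled knockouts. Mup10 came next, with 797, 709 and 1055 CPM in WT and 1523, 110.0 and 143 CPM in the labelled knockouts. Mup9 had 607, 540.4 and 801 CPM in WT and 1195, 83.9 and 110.5 CPM in the labelled knockouts. All 3 genes were highest in labelled replicate 1 and below every WT library in labelled replicates 2 and 3. Mup17, the lowest of the 9 and the one with the most sequence of its own, had 449, 399.7 and 589.5 CPM in WT and 877, 61.3 and 79.2 CPM in the labelled knockouts. Its order of libraries was that of the others. The remaining members, Mup11, Mup12, Mup13, Mup14 and Mup16, lay between Mup17 and Mup10 in each library.

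Per kb of transcript, the WT levels were 1362 ± 273 CPM per kb for Mup15, 921 ± 194 for Mup10, 796 ± 164 for Mup14 and 752 ± 156 for Mup9 (SD, n = 3). They were 659 ± 133 CPM per kb for Mup11, 645 ± 135 for Mup16, 607 ± 122.5 for Mup12, 558 ± 114.5 for Mup13 and 517 ± 106 for Mup17. This order was the same in 6 of 6 libraries. Below Mup15 each gene differed from the next by less than the SD between WT libraries. That SD holds the rise and fall that all members shared, so it does not measure differences between genes within a library. As shares of the summed member counts, successive members did not overlap over the 6 libraries. The closest were Mup11, with 9.74% to 9.92%, and Mup16, with 9.48% to 9.67%. How many of these counts are each gene's own remains uncertain. Mup15 had the highest level although none of its 50-base windows is its own. Mup2, a member of the family that also has no 50-base window of its own, stood at 2430 ± 507 CPM per kb.

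The fitted log2 change between labelled knockout and WT was nearly the same for every member. It ran from -0.55 in Mup15 to -0.48 in Mup12, with SE from 0.89 to 0.90, and for the summed counts it was -0.52 ± 0.90 (SE). EdgeR called 0 of the 9, beside the 3.42% of all genes called lower, and 0 had an unadjusted p under 0.05. DESeq2 and limma-voom also called 0 of the 9. For the summed counts limma-voom, which averages on the log scale, gave -1.64 ± 0.96 (SE). The group means of the summed signal were 6267 ± 1285 CPM in WT and 4384 ± 5980 CPM in the labelled knockouts (SD, n = 3), so the spread of the labelled knockouts exceeded their mean.

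1 library decided these values. Without the library labelled Hsp20 KO replicate 1 the log2 changes ran from -2.78 in Mup13 to -2.72 in Mup12, with SE from 0.21 to 0.22, and the summed signal gave -2.75 ± 0.25. 9 of 9 were then called lower, beside 4.52% of all genes. Since the members were chosen on this contrast, nothing is read from that count. Labelled replicates 2 and 3 lay below all 3 WT libraries for 22.5% of the 16167 genes of this fit. Without labelled replicate 2 or 3 the summed signal gave -0.022 ± 0.79 and -0.039 ± 0.88. In whole tissue, fewer cells that make a transcript and less of it per cell cannot be told apart.

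The composition of the Mup signal hardly moved while its amount changed more than 10-fold. Each member's share of the 9-gene sum lay between 7.54% (Mup17) and 20.3% (Mup15) in every library. No member's highest share exceeded its lowest by more than 1.04-fold. The shares of 2 of the 9 did not overlap between the groups, with labelled knockout means 1.011 (Mup11) and 1.022 (Mup12) times those of WT. How often shares separate over all genes was not worked out, so nothing is read from this count. Mup11 took 9.86%, 9.76% and 9.74% in WT and 9.92%, 9.87% and 9.91% in the labelled knockouts, and Mup12 took 9.03%, 8.95% and 8.93% in WT and 9.16%, 9.12% and 9.22% in the labelled knockouts. Mup15 took 20.1%, 20.2% and 20.02% of the sum in WT and 19.6%, 20.3% and 19.97% in the labelled knockouts. Whether the 9 rows counted the same reads was not tested.

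The other Mup rows fell into 3 kinds by their level and order over the libraries. Mup1, Mup2, Mup7, Mup8, Mup18 and Mup19, all at least 98.3% identical to the 9, moved with them, with log2 changes between -0.54 and -0.48, and between -2.77 and -2.72 without labelled replicate 1. Mup4, Mup5 and Mup20, which have sequence of their own, had the same order of libraries at lower levels. Mup5 stood at 46.3, 42.4 and 64.0 CPM in WT and 135, 8.33 and 12.3 CPM in the labelled knockouts. Mup4, whose product occurs in the nose as a carrier of odorants, stood at 8.58, 7.25 and 10.8 CPM in WT and 11.9, 0.824 and 1.26 CPM in the labelled knockouts. Mup20 stood at 9.63, 8.36 and 12.8 CPM in WT and 14.1, 1.007 and 1.26 CPM in the labelled knockouts. These 3 genes were thus highest in labelled replicate 1 and lowest in labelled replicates 2 and 3, with reads that mostly or often match no other Mup gene. Mup3 did not have this order, with 1.28, 0.718 and 1.75 CPM in WT and 2.96, 1.37 and 3.19 CPM in the labelled knockouts. Mup21 stayed between 0.131 and 0.668 CPM and Mup6 between 0.0743 and 0.687 CPM. Mup6, between 89.5% and 90.2% identical to the 9, had at most 19 counts in a library, too few to show an order. Of the 12 other Mup rows 11 were tested and 0 called by edgeR, DESeq2 or limma-voom, with 1 at an unadjusted p under 0.05 by edgeR, and 9 of 11 were called lower without labelled replicate 1.

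Set against the sum of the members, Mup5, Mup20 and Mup4 did not overlap between the groups as labelled, labelled replicate 1 included. These ratios were chosen after their values were seen and are untested. How often such ratios separate over all genes was not worked out. Mup5 had 7.86, 8.13 and 8.32 counts for every 1000 counts of the 9 members in WT and 12.0, 10.25 and 11.7 in the labelled knockouts. The 95% exact (Clopper-Pearson) intervals reached from 7.41 to 8.68 over the WT libraries, against 11.6 to 12.4, 8.81 to 11.9 and 9.998 to 13.7 in labelled replicates 1 to 3. They cover counting error only. Mup20 had 1.63, 1.60 and 1.66 counts for every 1000 in WT and 1.25, 1.24 and 1.2 in the labelled knockouts. For Mup20 the interval of labelled replicate 1, from 1.125 to 1.38, lay below the 3 WT intervals, which began at 1.41, and those of labelled replicates 2 and 3, up to 1.88 and 1.92, covered the WT values. Mup4 had 1.46, 1.39 and 1.41 in WT and 1.05, 1.01 and 1.2 in the labelled knockouts. The mean ratio of the labelled knockouts was 1.40 times that of WT for Mup5, 0.753 times for Mup20 and 0.768 times for Mup4. The near-identical Mup1 did not overlap either, with 94.2, 93.3 and 93.2 counts for every 1000 in WT and 95.9, 94.8 and 96.3 in the labelled knockouts. Of the sparse copies, Mup3 had 0.2175, 0.138 and 0.228 in WT and 0.263, 1.69 and 3.04 in the labelled knockouts, and Mup6, with at most 19 counts in a library, did not overlap. Mup21 overlapped, with 0.0725, 0.025 and 0.0393 in WT and 0.0512, 0.225 and 0.6355 in the labelled knockouts.

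**Figure D3:**
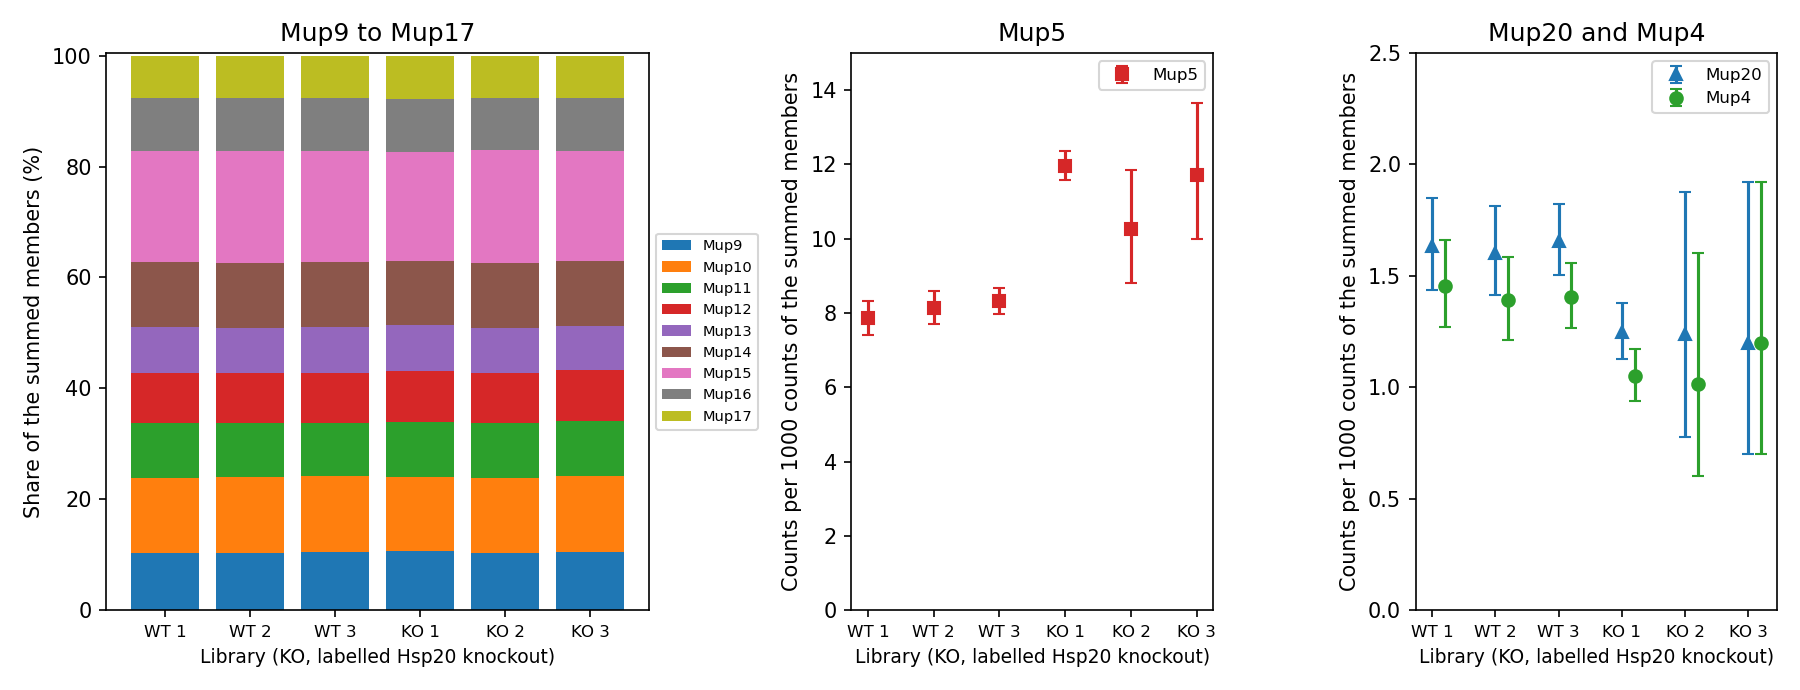
Left, share of each member in the 9-gene sum, in percent, by library. Middle and right, Mup5, Mup20 and Mup4 as counts for every 1000 counts of that sum, with 95% exact intervals for counting error. The 9 shares look alike in all libraries, Mup5 sits at 10.25 or above in the 3 labelled knockouts and at 8.32 or below in WT, and Mup20 sits lower in the labelled knockouts.

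The genes around the cluster had other values. Of 29 other genes between the Mup genes or within 1 Mb of the outermost, 24 were tested, 2 were called higher and 1 lower, with a median log2 change of -0.052 beside 0.001 over all tested genes. Alad, the second enzyme of heme synthesis, stood at 44.4, 45.6 and 41.3 CPM in WT and 183, 97.2 and 171 CPM in the labelled knockouts. It rose by 1.78 ± 0.22 on the log2 scale (edgeR adjusted p = 0.00747; 0.0513 without WT replicate 3). Its neighbour Hdhd3, a predicted hydrolase, rose by 2.22 ± 0.26 (edgeR adjusted p = 0.00597). Gm12596, under 1 CPM throughout, fell by 1.88 on the log2 scale (edgeR adjusted p = 0.0311), a call kept only when WT replicate 1 was the library left out (adjusted p = 0.0459 then, and 0.0654 to 0.133 otherwise). DESeq2 did not call Gm12596 (adjusted p = 0.0526). In all 3, labelled replicate 1 lay on the same side of WT as the other labelled knockouts. Without labelled replicate 1, 3 neighbours were called higher and 1 lower.

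**Figure D4:**
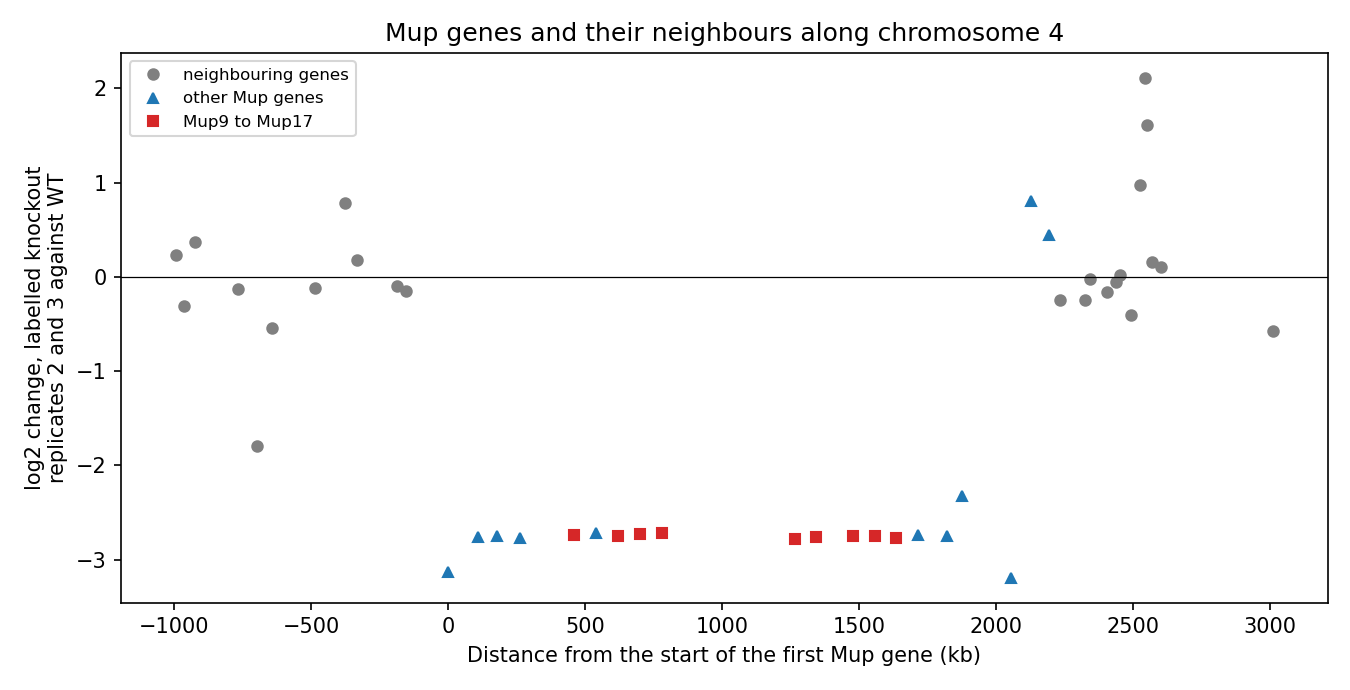
Log2 change of labelled knockout replicates 2 and 3 against WT (y) by distance from the start of the first Mup gene in kb (x). Squares are the 9 members, triangles other Mup genes and circles neighbouring genes. The members sit between -2.78 and -2.72, Mup3 and Mup21 at the far end sit at 0.81 and 0.44, and the neighbours run from -1.79 to 2.11.

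Profiles nearest to the summed members were sought among 14669 genes without a Mup symbol and with a mean of at least 1 CPM. The measure was the root mean square difference of centred log2 CPM over the 6 libraries. The nearest row has the gene ID 100048885 and no symbol in the tables used. It differed from the members by 0.00643, and held between 0.618 and 0.626 times their summed counts in every library. Single members differed from their own sum by up to 0.0173. Whether this row is a further Mup copy was not tested. The next were Aox3 (0.382), an aldehyde oxidase, Cyp2e1 (0.535), a cytochrome P450 that oxidises ethanol and other small molecules, Zyg11a (0.578), a substrate receptor of a ubiquitin ligase, and D730005E14Rik (0.617). Aox3 stood at 4.58, 4.01 and 3.33 CPM in WT and 4.88, 0.275 and 0.446 CPM in the labelled knockouts. Cyp2e1 stood at 1585, 2340 and 2068 CPM in WT and 2082, 355.5 and 560.1 CPM in the labelled knockouts. Both kept the WT level in labelled replicate 1 and were low in labelled replicates 2 and 3, without the excess over WT that the Mup genes had in labelled replicate 1. Hspb6 itself ranked number 12 in likeness, with 0.710.

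Neither Aox3 nor Cyp2e1 passed with all 6 libraries (log2 change -0.96 ± 0.79 and -1.0 ± 0.59, adjusted p by edgeR 0.488 and 0.3295). Without labelled replicate 1 the log2 changes were -3.51 ± 0.33 for Aox3 and -2.12 ± 0.26 for Cyp2e1 (edgeR adjusted p = 0.00175 and 0.00438). These genes were picked for their order of libraries, so the values describe it.

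Liver transcripts were looked at because Mup RNA and Cyp2e1 are both abundant there. All 20 hepatocyte markers had a row and 8 passed the filter on low counts, of which 1 was called higher and 0 lower. Of the 20, 13 stayed under 1 CPM in all libraries. Fga and Fgb, fibrinogen chains, and Cyp3a11 had 0 counts in all 6 libraries, and Ttr did not exceed 0.0388 CPM. Alb, serum albumin, stood at 23.1, 21.05 and 22.5 CPM in WT and 15.1, 21.1 and 22.7 CPM in the labelled knockouts, so it was lowest where the Mup genes were highest. The summed list ran from 1624 to 2378 CPM in WT and from 461 to 2147 CPM in the labelled knockouts, nearly all of it Cyp2e1. Cyp2e1 was called lower when labelled replicate 1 was left out. Without Cyp2e1 the sums were 38.3 to 46.9 CPM and 64.9 to 105 CPM. Serpina1c, an alpha-1-antitrypsin with near-identical paralogs that may share its reads, rose by 3.27 ± 0.28 on the log2 scale (edgeR adjusted p = 0.00261), from 5.67 ± 0.838 to 54.6 ± 19.5 CPM. Of the sums without Cyp2e1, Serpina1c made up 34.1, 73.0 and 56.65 CPM in labelled replicates 1 to 3.

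**Figure D5:**
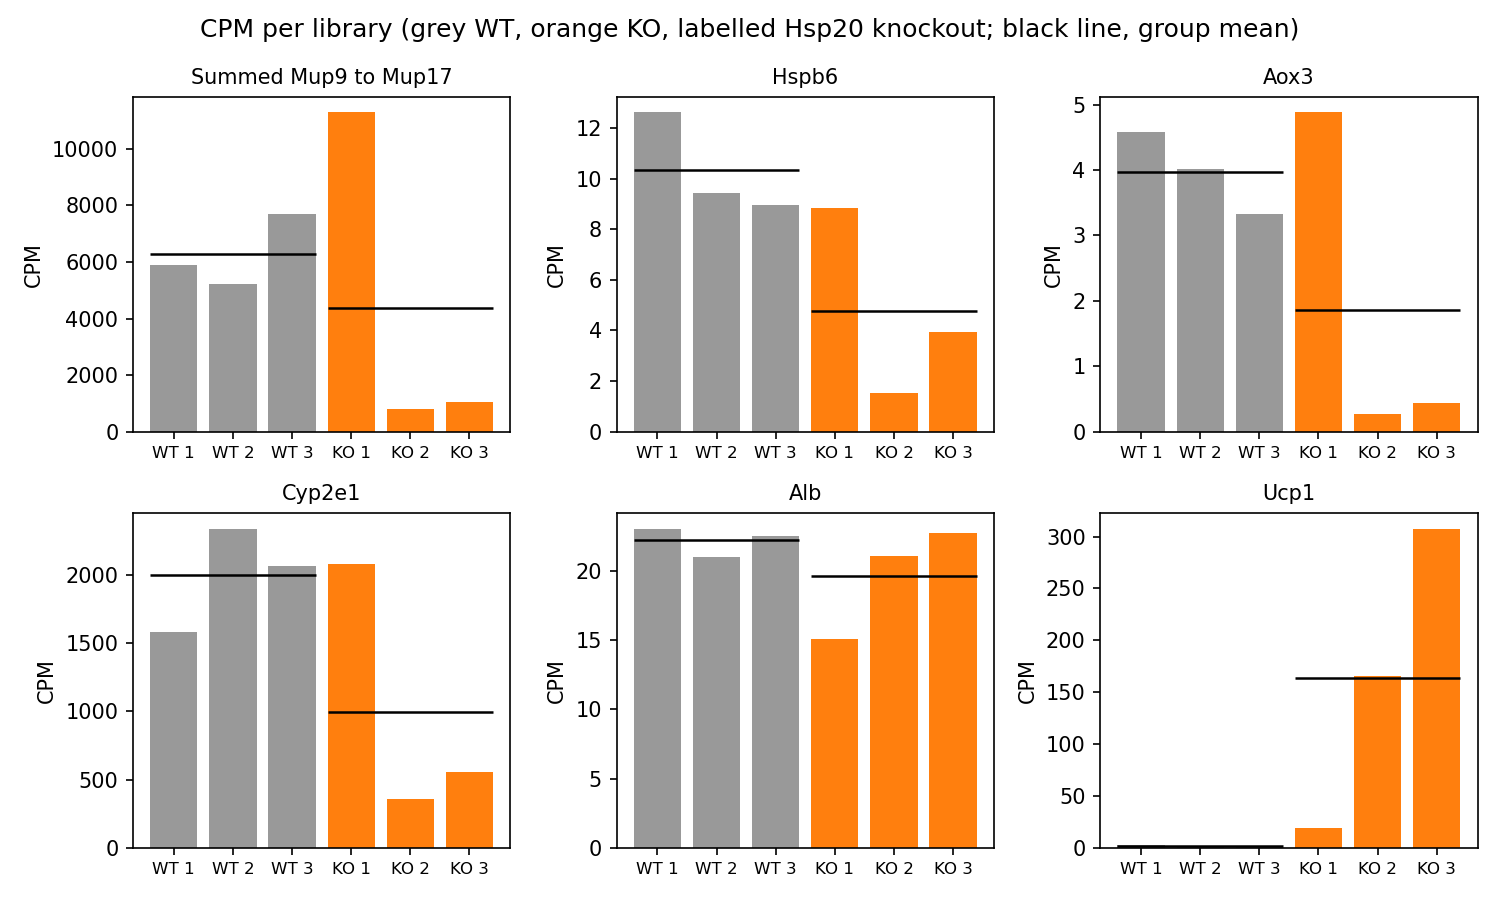
CPM by library on linear axes from 0, for the summed members, Hspb6, Aox3, Cyp2e1, Alb and Ucp1 (grey WT, orange labelled knockout, black lines group means). The first 4 are low in the libraries labelled knockout 2 and 3 and at or near the WT level or above it in the one labelled 1. Alb ranges from 15.1 to 23.1 CPM, and Ucp1 is highest in labelled knockouts 2 and 3.

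Markers of other glands and epithelia that express lipocalins or lie near this fat pad were looked up as well. Of 15 mammary epithelium markers, 10 stayed under 1 CPM in all libraries, Wap was at 0, and the sums were 6.53 to 9.32 CPM in WT and 4.17 to 8.24 CPM in the labelled knockouts. EdgeR called 0 of the 6 tested, with 0 at an unadjusted p under 0.05, and DESeq2 and limma-voom called 0. Prom1, Epcam and Krt19, the most abundant of them, had log2 changes of -0.38 ± 0.32, -0.42 ± 0.26 and -0.81 ± 0.50. Without labelled replicate 1, Krt19 alone was called lower (edgeR adjusted p = 0.0413). Of the salivary and lacrimal markers with a row, 6 of 12 were at 0 in every library, among them Smr3a and Dcpp1, and 2 were tested with 0 called by edgeR, DESeq2 or limma-voom and 0 at an unadjusted p under 0.05. The salivary and lacrimal sums were 294 to 347 CPM in WT and 239 to 361 CPM in the labelled knockouts. Amy1, amylase, made up nearly all of them, with 293, 346.5 and 313.5 CPM in WT and 238, 238 and 360.5 CPM in the labelled knockouts (log2 change -0.19 ± 0.17). Without Amy1 the sums were 0.946 to 1.54 CPM and 0.594 to 1.88 CPM, and Bhlha15 and Aqp5 did not exceed 1.56 CPM.

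Among the skin markers, 2 differed between the groups. Of 14 with a row, 8 were tested, 0 were called higher and 2 lower, with a median log2 change of -0.11. Sbsn, suprabasin of the epidermis, stood at 64.0, 52.7 and 64.3 CPM in WT and 10.2, 9.57 and 11.2 CPM in the labelled knockouts, and fell by 2.55 on the log2 scale (edgeR adjusted p = 2.02e-04). Krtdap, at most 1.21 CPM, fell by 2.13 (edgeR adjusted p = 0.0431), a call kept only when labelled replicate 3 was the library left out (adjusted p = 0.0387 then, and 0.0508 to 0.159 otherwise). Krt79 and Scd3 were called higher and Sbsn lower when labelled replicate 1 was left out. Sbsn was as low in labelled replicate 1 as in the others, unlike the members. The summed list ran from 258.5 to 512 CPM in WT and from 542 to 895 CPM in the labelled knockouts, mostly Scd3, a desaturase, and without it from 78.4 to 92.5 and from 35.5 to 40.5 CPM. The part of the skin markers in the Mup signal was not tested.

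The pathway that drives Mup genes in liver was expressed in the fat. All 20 genes of the growth hormone list were tested, and 0 were called higher and 1 lower, with a median log2 change of -0.28 beside 0.001 over all genes. Ghr, the growth hormone receptor, stood at 660.5, 640.4 and 671 CPM in WT and 575, 403 and 501 CPM in the labelled knockouts, which did not pass (log2 change -0.41 ± 0.14, adjusted p by edgeR 0.118). Socs3, an inhibitor of JAK signalling, stood at 26.7, 80.3 and 92.9 CPM in WT and 22.1, 17.5 and 12.6 CPM in the labelled knockouts. It fell by 1.92 on the log2 scale (edgeR adjusted p = 0.0409), and the adjusted p was 0.0951 to 0.142 without WT replicate 2 or 3 or labelled replicate 2 or 3. Limma-voom called 0 genes of the list (Socs3 adjusted p = 0.0803), and DESeq2 called 6. Stat5a and Stat5b had log2 changes of 0.22 ± 0.11 and 0.047 ± 0.093, and Jak2 of -0.33 ± 0.10, and none of them passed (adjusted p by edgeR 0.263, 0.790 and 0.0934). Without labelled replicate 1, 5 of the 20 were called lower, Ghr, Prlr, Socs3, Igf1 and Irs1. Igf1, a target of the pathway, then changed by -0.70 ± 0.13 on the log2 scale and Prlr, the prolactin receptor, by -1.42 ± 0.27 (adjusted p by edgeR 0.0204 and 0.0227).

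Among the nuclear hormone receptors, the glucocorticoid receptor Nr3c1 and the thyroid hormone receptor Thra had log2 changes of -0.051 ± 0.086 and 0.065 ± 0.13, and neither passed (edgeR adjusted p = 0.752 and 0.797). Ppara, a receptor for fatty acids, had a log2 change of 1.53 ± 0.41 that missed the threshold (adjusted p by edgeR 0.0636), and it was called higher when labelled replicate 1 was left out.

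Of 17 liver transcription factors 9 were tested, 1 was called higher and 0 lower. Dbp, a factor whose RNA cycles over the day, rose from 30.5, 17.6 and 23.8 CPM in WT to 169, 127 and 176 CPM in the labelled knockouts, by 2.72 ± 0.21 on the log2 scale (edgeR adjusted p = 0.00212). Hnf4a stayed at or below 0.0653 CPM and Onecut1 at 0, while Cebpa, which fat and liver share, stood between 456.5 and 750 CPM. Zhx2, a repressor of several fetal liver genes, did not pass (log2 change -0.23 ± 0.071, adjusted p by edgeR 0.0943). Zhx3 was also called, as lower, when labelled replicate 1 was left out. Of 22 lipocalins outside the Mup family with a row, 9 were tested, and edgeR, DESeq2 and limma-voom called 0, with 1 at an unadjusted p under 0.05 by edgeR. Rbp4, the carrier of retinol, had a log2 change of 0.38 ± 0.14, Orm1, an acute phase protein, of 0.086 ± 0.16, and Apod of 0.13 ± 0.26. Rbp4 passed only without labelled replicate 2 (edgeR adjusted p = 0.0225).

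Thermogenic genes were higher where the Mup genes were low, although not only there. Of 12, 9 were called higher and 0 lower by edgeR, with a median log2 change of 2.01, and limma-voom called 6. Ucp1, the uncoupling protein of thermogenic fat, stood at 2.64, 1.76 and 1.06 CPM in WT and 19.1, 165 and 308 CPM in the labelled knockouts (log2 change 6.51 ± 1.03, edgeR adjusted p = 0.016, and 0.0786 or 0.0843 without WT replicate 2 or 3). Limma-voom did not call Ucp1 (log2 change 5.93, adjusted p = 0.0782). Labelled replicate 1 thus had Ucp1 above every WT library and below the other labelled knockouts, and the most Mup RNA. Cidea, a lipid droplet protein, rose by 2.53 ± 0.30 and Kcnk3, a potassium channel, by 1.09 ± 0.17 on the log2 scale (edgeR adjusted p = 0.00638 and 0.0164). Kcnk3 did not pass without WT replicate 2 or 3 (edgeR adjusted p = 0.0639 and 0.0832). Without labelled replicate 1, 10 of the 12 were called higher. The part of these genes in the Mup signal was not tested.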

How the data were processed

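The deposited file holds the authors' raw read counts by gene ID, as whole numbers with 1 column for each library, so depth is the column total. Tools named in the submitters' processing notes are TopHat, DESeq, CASAVA 1.8 and bcl2fastq, with GRCm38 (mm10) as the build. For the read counter, annotation, strand setting and treatment of reads with several matches, the sources used here name nothing. Columns were matched to samples through the names in the labels, and 24334 of 24415 gene IDs to symbols through RefSeq (GRCm38.p6). Genes were kept by filterByExpr (minimum count 10, minimum total 15), scaled by TMM and tested with edgeR 4.0.16 in R 4.3.3 (quasi-likelihood, genotype only, Benjamini-Hochberg over all tested genes, threshold 0.05). The SE given for an edgeR log2 change is its absolute value divided by the square root of the F statistic of the quasi-likelihood test. The SE of DESeq2 and limma-voom come from their own fits. The 9 member rows were also summed before the fit. CPM are on TMM-scaled libraries, and log2 CPM used a prior count of 2. Alternatives were other scalings and filters, a replicate block, DESeq2 1.42.0, limma-voom (limma 3.58.1) and leaving out each library. The members and lists were chosen with earlier results of these data known. Named were all Mup rows, Hspb6, Ucp1, in each list up to 3 called genes by mean CPM (or the 3 most abundant if none was called) and the 5 nearest profiles. Further genes, such as Ghr, Alb, Zhx2, Ddx3y and Xist, were named after their values were seen. For each gene, the GENCODE transcript with a complete coding sequence nearest the family's median length was aligned with Biopython 1.88. The result of 1 gene of the nuclear hormone receptor list is not reported here.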

Additional observations from a re-analysis of the deposited data

How the results depend on the processing

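With all 6 libraries the summed members changed by -0.52 on the log2 scale. Of 117 combinations of a member with an alternative, 115 gave a negative log2 change, and 108 moved by no more than the SD between libraries. The exceptions in size were the 9 members without the library labelled Hsp20 KO replicate 1. The 9 move as 1 signal, so these combinations are not separate measurements. For the summed signal that SD was 1.493 on the log2 scale, labelled replicate 1 included. The change from -0.52 to -1.64 with limma-voom or -1.69 with the replicate block thus counted as not moved. Leaving out 1 library gave -2.75 to -0.022 for the summed members, 0 to 9 members called lower and 0 to 9 other Mup genes called lower, with -2.75 and 9 of each where labelled replicate 1 was missing. Leaving out 1 library gave 75 to 941 genes called higher and 53 to 730 called lower over all genes, and 5 to 18 higher and 1 to 11 lower over the related lists. With the replicate block edgeR called 226 genes higher and 169 lower, 8 and 3 in the lists, and 0 members, and the summed members changed by -1.69 ± 0.88. The replicate block also ended the calls of Socs3, Krtdap, Gm12596 and Ucp1 (edgeR adjusted p = 0.109, 0.0632, 0.0767 and 0.0511). Same-numbered libraries did not deviate together (correlations -0.038, 0.0917 and -0.0957). With 3 libraries in a group this cannot exclude that same-numbered samples were handled together, and the labels do not say. DESeq2 called 1136 genes higher and 1017 lower, with 10 list genes lower. Limma-voom, which averages on the log scale, gave -1.64 ± 0.96 for the summed members. Taking every Mup row but the gene itself as the denominator, an alternative chosen after seeing the data, left the ratios at 1.395 (Mup5), 0.751 (Mup20) and 0.766 (Mup4). The 9 members are part of that denominator, so it is not an independent one. The 18 and 17 counts of Mup4 in labelled replicates 2 and 3 limit its ratio there.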
